A study of Mus musculus with 6 samples.

Results

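The cytosolic ribosomal protein genes of mouse epididymal white adipose tissue (eWAT) are described here in cancer-associated cachexia. They were taken from the deposited gene table as the protein-coding rows whose symbol is Rpl or Rps followed by a number and at most 1 letter a, x or l, or is Rplp0, Rplp1, Rplp2 or Rpsa. The rule used names and biotypes only, and it found 80 genes of the 55039 rows. Another 3 rows with such a symbol, Rpl6l, Rpl32l and Rps4l, are annotated as pseudogenes and were left out. All mice were male C57BL/6 animals aged 6 to 7 weeks at the start. The 3 mice of the CAC group were injected under the skin of the lower back with Lewis lung carcinoma (LLC) cells, a mouse lung tumor line, and the 3 mice of the CONT group were injected with PBS alone. The pad was taken 28 days after injection, and each library holds the bulk RNA of the eWAT of 1 mouse. The p-values therefore measure the spread between single mice.

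Ribosomal proteins and ribosomal RNA together form the small and the large subunit of the ribosome, which decodes mRNA and joins amino acids. The genes are separate, and their transcription is coordinated. Their mRNAs begin with a run of pyrimidines, the TOP motif, through which mTORC1 and LARP1 control their translation. In adipose tissue these mRNAs are among the most abundant in every cell type, and several of them serve as reference genes in PCR.

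The 6 libraries held between 15713794 and 25926425 counts. CONT replicate 1 stood apart, with 30.2% of its counts on genes of the mitochondrial genome against 3.89% to 5.04% in the other libraries. Results are therefore also given without it. Libraries also differed in the markers of neighboring tissues. The summed level of 7 testis genes was 1184 CPM (counts scaled to a common library size, with TMM factors) in CONT replicate 2 and 1608 CPM in CAC replicate 3, and at most 15.7 CPM in the others, with all 7 genes at 0 reads in CAC replicate 1. The summed level of 4 epididymis genes was 6818 CPM in CONT replicate 3 and at most 70.4 CPM elsewhere. The 6 adipocyte markers had reads in every library, with sums from 14906 to 49389 CPM. Among them Lep was nearly absent in CAC replicates 2 and 3, with 99 and 11 reads. It had 7820, 9335 and 9154 reads in CONT and 12457 in CAC replicate 1.

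The annotated starts of the genes are given as a description, without a link to their levels in the libraries. Start positions and promoter sequences came from RefSeq (GRCm38.p6), where 60 of the 80 genes had an entry. The lines below show 15 bases before and 15 bases from each annotated start for the members with the smallest p-values and the largest fold changes that had an entry, with runs of at least 5 C or T in capitals.
Rps6, chr4:86857353-86857382, minus strand: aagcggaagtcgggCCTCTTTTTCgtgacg
Rpl38, chr11:114668565-114668594, plus strand: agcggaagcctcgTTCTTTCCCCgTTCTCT
Rps12, chr10:23787195-23787224, minus strand: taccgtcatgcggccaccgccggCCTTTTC
Rps2, chr17:24720048-24720077, plus strand: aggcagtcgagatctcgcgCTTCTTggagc
Rps24, first start, chr14:24490663-24490692, plus strand: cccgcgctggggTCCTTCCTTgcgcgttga
Rps24, second start, chr14:24490738-24490767, plus strand: tccggcgccgtagccatcatggtgagtctc
Rps3, chr7:99483695-99483724, minus strand: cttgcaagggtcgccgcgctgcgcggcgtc
Rpl41, chr10:128549154-128549183, minus strand: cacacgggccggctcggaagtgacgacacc
In Rps6, Rpl38 and the first start of Rps24 the annotated start lay inside a pyrimidine run. In Rps12 and Rps2 a run began downstream of it. Around the starts of Rps3 and Rpl41 and the second start of Rps24 no such run was found.

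Over all members with an entry, 13 of 60 (21.7%) had a C at an annotated start followed by at least 4 C or T, against 3.01% of 27025 genes with an entry. A run of at least 8 C or T within 25 bases of the start was present in 53.3% of the members and in 22.3% of all genes. The letters CCGGAAG, the core of an ETS-type site, were found on either strand of the window from 250 bases before to 50 bases after the start in 25 members (41.7%), against 9.93% of all genes. TATAAA was found on either strand of that window in 6 of the 60 members and in 4234 of the 27025 genes, and within 50 bases of the start on the sense strand in 4 members (6.67%), Rpl36a, Rplp0, Rps2 and Rps28, against 4.05% of all genes. AAGATGGCG, the core of a YY1-type site, was found in 3 members, Rpl13a, Rpl35a and Rps27, and in 1.64% of all genes. CCGGAAG can share bases with AAGATGGCG and, on its other strand, with a pyrimidine run. These are matches of letters in annotated windows and were not tied to the libraries.

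The ribosomal protein mRNAs took between 2.31% and 4.0% of all counts in a library, and the groups overlapped. The share was 3.97%, 2.41% and 2.41% in CONT replicates 1, 2 and 3, and 2.31%, 4.0% and 3.90% in CAC replicates 1, 2 and 3. CONT replicate 1 and CAC replicates 2 and 3 were thus high, and CONT replicates 2 and 3 and CAC replicate 1 were low. The means were 2.93% ± 0.90 (SD, n = 3) in CONT and 3.40% ± 0.948 (SD, n = 3) in CAC, and an exact two-sided permutation test gave p = 0.9, where 0.1 is the smallest value that 3 mice against 3 allow. The 95% Wilson intervals of the single shares, which cover counting error only, were far narrower than the gap between the high and the low libraries, such as 2.30% to 2.32% in CAC replicate 1, and those of CONT replicates 2 and 3 overlapped. Outside the mitochondrial genome the share was 5.68% in CONT replicate 1, 2.51% and 2.52% in CONT replicates 2 and 3, and 2.43%, 4.20% and 4.09% in CAC replicates 1, 2 and 3. On that scale the group means were 3.57% in both groups.

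**Figure D1:**
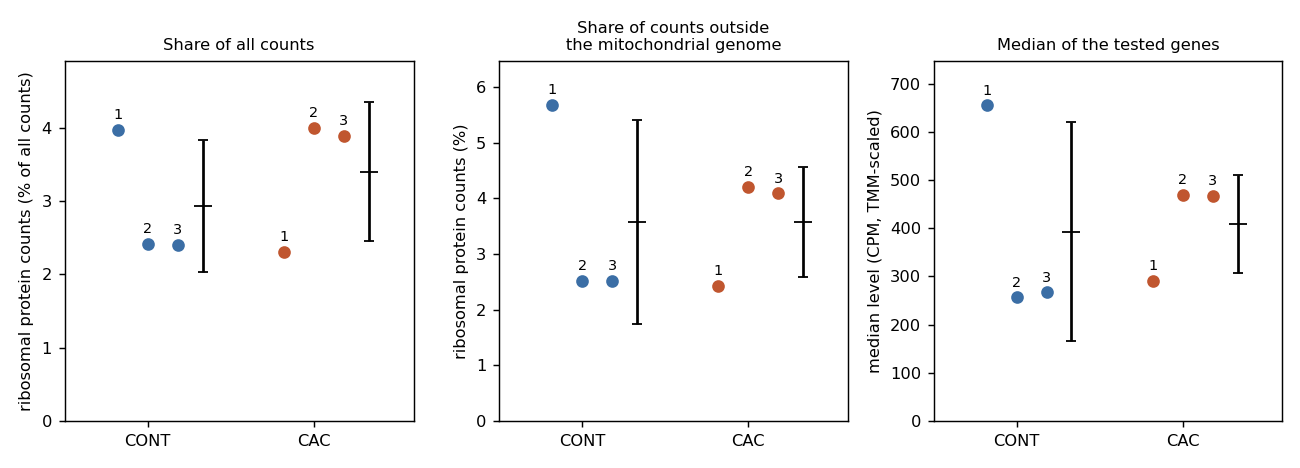
Each point is a library, numbered by replicate, and the dash and bar beside each group are its mean ± SD (n = 3). The panels plot the ribosomal protein share of all counts (%), the share of counts outside the mitochondrial genome (%), and the median level of the 77 tested genes (CPM). CONT replicate 1 and CAC replicates 2 and 3 lie above the other libraries in all panels.

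Other measures moved across the libraries beside these shares. Summed erythroid markers were 4585 CPM in CONT replicate 1, 229 and 354 CPM in CONT replicates 2 and 3, and 1728 to 2192 CPM in CAC, with none of the 3 genes at 0. Summed macrophage markers were 443 CPM in CONT replicate 1, 1369 and 1377 CPM in CONT replicates 2 and 3, and 948, 603 and 811 CPM in CAC replicates 1, 2 and 3, so that the libraries low in ribosomal protein mRNA had the 3 highest sums. The sum is led by Lyz2, which alone was higher in CAC replicate 3 (613 CPM) than in CAC replicate 1 (544 CPM). Summed adipocyte markers were highest in CONT replicate 1 and CAC replicate 1, and in CONT replicate 1 the sum was led by Fabp4 (22460 CPM) and Lpl (19874 CPM), while Adipoq (1692 CPM) was at its lowest there. Within CAC all 6 markers were higher in replicate 1 than in replicates 2 and 3. Fabp4 was at 13836, 3233 and 3750 CPM in CAC, Plin1 at 2229, 778 and 998 CPM, and Lep at 512, 3.996 and 0.415 CPM. In CONT the markers were mixed, with Lep at 697, 409 and 414 CPM and Plin1 at 997, 1766 and 1992 CPM. The part of any of these measures in the ribosomal protein levels was not tested. In bulk tissue, fewer cells of a type and less RNA per cell cannot be told apart.

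Of the 80 genes, 77 passed the expression filter, and none of them passed the test between CAC and CONT. With edgeR's quasi-likelihood test over 17296 genes, 0 members had a Benjamini-Hochberg adjusted p under 0.05 (range 0.501 to 0.999), and 0 of all tested genes (0%) did. At an unadjusted p under 0.05, 0 members were higher and 0 lower in CAC, against 6.31% and 6.95% of all tested genes. The smallest unadjusted p among the members was 0.147. The median log2 fold change of the members was -0.02, with 36 of 77 above 0, beside a median of -0.06 over all tested genes. The sign of this median depended on the model and the filter, since with all 6 libraries both limma fits on FPKM put 56 of 77 members above 0, with a median of 0.12, and the gene length offset put 54 above 0, with a median of 0.14. Without a filter on low counts, 48 of 80 were above 0, with a median of 0.05. None of these fits took a member past the adjusted threshold. The small subunit (31 tested, 15 above 0, median -0.02) and the large subunit (46 tested, 21 above 0, median -0.02) gave like values. The standard errors of the log2 fold changes ran from 0.25 to 0.70 with a median of 0.44, and the 3 libraries of CAC overlapped those of CONT in all 77 members, where 11.8% of all tested genes were higher and 10.7% lower in CAC without overlap.

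**Figure D2:**
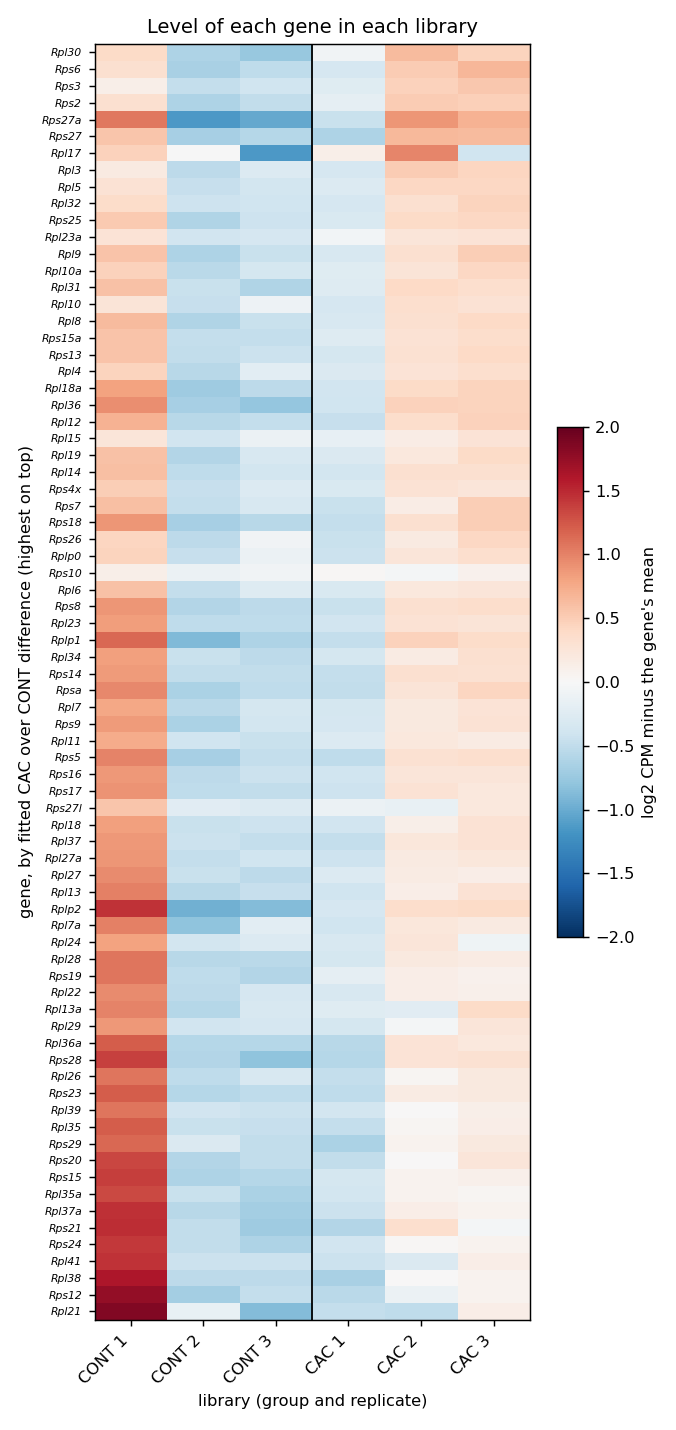
Each row is 1 of 76 of the 77 tested genes and each column a library, and the color is the log2 CPM of the gene in that library minus the mean of the gene over the 6 libraries. Rows are ordered by the fitted log2 fold change of CAC over CONT, from 0.60 in Rpl30 to -1.0 in Rpl21. Most rows are red in CONT replicate 1 and CAC replicates 2 and 3, and the red of CONT replicate 1 deepens toward the bottom.

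The members varied together across the 6 mice. The log2 level of a member over the 6 libraries correlated with the mean of the other members with a median Pearson r of 0.958, and 61 of 77 members had an r above 0.9. The libraries share normalization and depth, so this is a description over 6 points. The lowest r was 0.491, in Rpl17, followed by 0.736 in Rps3 and 0.775 in Rpl3. Among genes outside the list, 2.79% had an r above 0.9 with the member mean. The 5 closest were Rpl36a-ps2, Rps3a1, Tpt1-ps3, Gm12115 and Gm10275, with r from 0.997 to 0.998. Rps3a1 encodes the ribosomal protein eS1 and falls outside the name rule, and 2 of the others are named as pseudogene copies of a ribosomal protein gene and of the TOP mRNA Tpt1.

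The members with positive fold changes were led by proteins of both subunits. Rpl30, a large subunit protein, was at 368, 184 and 167 CPM in CONT replicates 1, 2 and 3 and at 269, 438 and 386 CPM in CAC replicates 1, 2 and 3. Its log2 fold change was 0.60 ± 0.38 (SE; adjusted p = 0.516). CONT replicate 1 lay inside the CAC range, and the other CONT libraries lay below it.

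Rps3, which lines the mRNA entry channel of the small subunit, was at 654, 432 and 461 CPM in CONT and at 513, 829 and 880 CPM in CAC (log2 fold change 0.52 ± 0.32 SE, adjusted p = 0.501). Rps6, the substrate of S6 kinase downstream of mTORC1, was at 714, 367 and 401 CPM in CONT and at 453, 810 and 911 CPM in CAC (0.55 ± 0.40 SE on the log2 scale, adjusted p = 0.562). Rps2, a neighbor of Rps3 at the mRNA entry, was at 1095, 574 and 626 CPM in CONT and at 776, 1246 and 1223 CPM in CAC (0.50 ± 0.37 SE, adjusted p = 0.572). In these small subunit genes CAC replicates 2 and 3 were the highest libraries and CAC replicate 1 lay between the CONT libraries.

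Rpl3, which reaches toward the peptidyl transferase center, was at 655, 404 and 479 CPM in CONT and at 459, 826 and 780 CPM in CAC (0.42 ± 0.33 SE on the log2 scale, adjusted p = 0.598). Rps27a, which is made as a fusion with ubiquitin, was at 323, 70.6 and 76.6 CPM in CONT and at 114, 287 and 252 CPM in CAC, with a log2 fold change of 0.48 ± 0.68 (SE; adjusted p = 0.791).

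The members with negative fold changes shared a high value in CONT replicate 1. Rpl21 was at 305, 75.7 and 46.0 CPM in CONT and at 60.8, 59.5 and 92.8 CPM in CAC, with the log2 fold change of largest size, -1.0 ± 0.69 (SE; adjusted p = 0.551). Its processed copies elsewhere in the genome held 10930 reads beside its own 11581, so that its level is uncertain. Rps12 was at 770, 142 and 165 CPM in CONT and at 157, 211 and 239 CPM in CAC (-0.83 ± 0.68 SE on the log2 scale, adjusted p = 0.613).

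Rpl38, known for its part in the translation of Hox mRNAs, was at 466, 106 and 106 CPM in CONT and at 96.5, 153 and 159 CPM in CAC (log2 fold change -0.73 ± 0.63 SE, adjusted p = 0.632). Rpl41, the smallest ribosomal protein, was at 2057, 561 and 562.5 CPM in CONT and at 559, 618 and 826 CPM in CAC (-0.67 ± 0.57 SE, adjusted p = 0.631). Rps24, one of the genes mutated in Diamond-Blackfan anemia, was at 1306, 347 and 320 CPM in CONT and at 375, 495 and 513 CPM in CAC (-0.51 ± 0.58 SE, adjusted p = 0.734). In each of these genes the value in CONT replicate 1 exceeded every CAC value, and CONT replicates 2 and 3 lay at or under most of them.

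CONT replicate 1 had the largest weight of any library on the direction of the members. Without it, 78 of 79 tested members were above 0 and the median log2 fold change was 0.57, beside -0.03 over all genes. In that fit 15 members had an unadjusted p under 0.05 and were higher in CAC, against 7.3% of the 19459 genes tested, and 0 were lower, against 8.28%. The edgeR adjusted p stayed at 0.237 or above. The libraries of CAC lay above both remaining CONT libraries in 50 of the 77 members, against 19.5% of all genes tested in the full fit. Rps27a then had a log2 fold change of 1.58 ± 0.44 (SE), Rplp2 of 1.09 ± 0.29, and Rpl30 of 1.07 ± 0.26. The 79 include Rpl10l and Rpl39l, which passed the filter here through CONT replicate 2 and CAC replicate 3 and give no comparison of the groups. The one below 0 was Rpl39l, and all 77 members of the full fit were above 0.

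**Figure D3:**
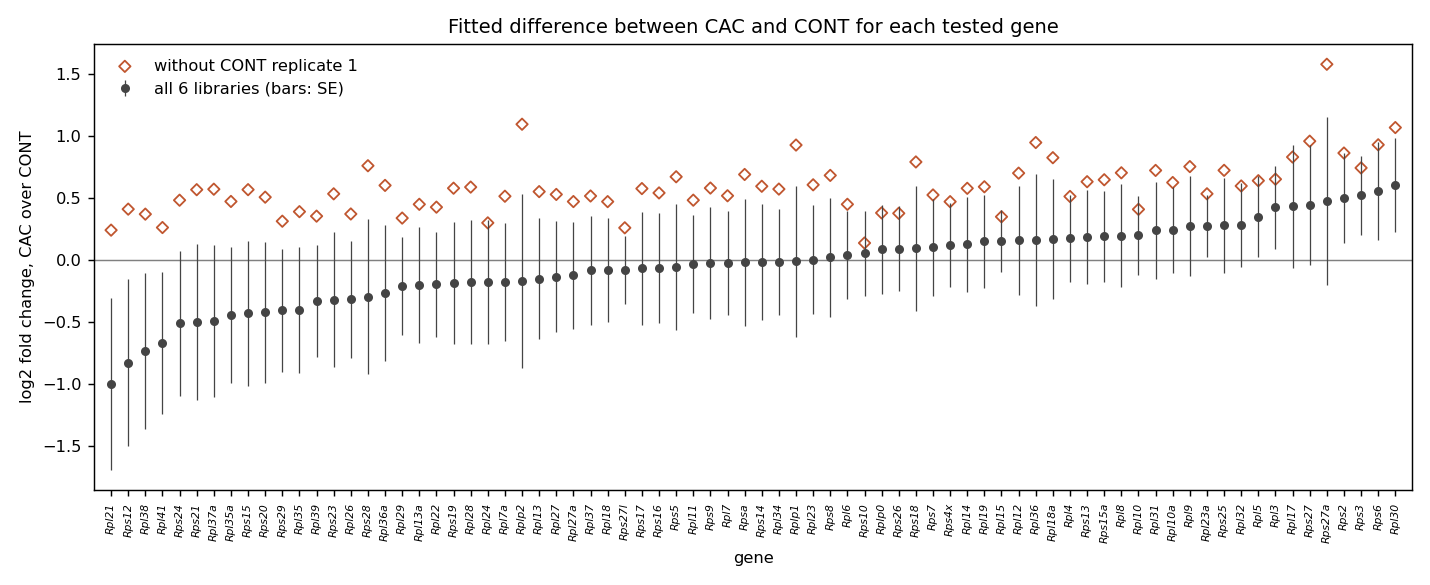
Each of 76 of the 77 tested genes has its log2 fold change of CAC over CONT with all 6 libraries (filled circles, bars are the SE) and without CONT replicate 1 (open diamonds). Filled circles run from -1.0 to 0.60 around 0, and all open diamonds lie above 0.

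The test used decided whether members passed in the fit without CONT replicate 1. DESeq2, chosen for this fit after the data had been seen, called 10 members higher in CAC at an adjusted p under 0.05, against 5.84% of all genes, and 1 member lower, against 5.18%. Among the higher ones were Rpl30 (adjusted p = 0.00151), Rps19, Rplp2, Rps27a, Rpl23a and Rps2, and the lower one was Rpl3l. At an unadjusted p under 0.05 DESeq2 had 49 members higher and 1 lower, against 6.94% and 6.27% of all genes. With an offset for gene length and CONT replicate 1 left out, edgeR had 23 members higher at an unadjusted p under 0.05, against 8.65%, and 0 with an adjusted p under 0.05. With all 6 libraries DESeq2 called 0 members, although it called 965 genes in all.

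The other libraries moved the median less. Leaving out CONT replicate 2 gave a median log2 fold change of -0.22 with 20 of 77 above 0, and leaving out CONT replicate 3 a median of -0.21 with 27 of 79. Leaving out CAC replicate 1, the low library of its group, gave a median of 0.19 and 8 members whose CAC libraries lay above all CONT libraries, against 17.3% of all genes. These were Rpl3, Rpl5, Rpl10, Rpl30, Rps2, Rps3, Rps6 and Rps27. Without any filter on low counts, 1 member was lower in CAC at an unadjusted p under 0.05, against 3.52% of all genes, and it was Rpl3l, which rested on 1 CONT library.

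The excess in CONT replicate 1 was larger in genes with short coding sequences. All 77 members were higher in CONT replicate 1 than in the mean of CONT replicates 2 and 3, by a median of 2.51 times and a range from 1.15 times in Rps10 to 5.14 times in Rplp2. Coding lengths, from the GENCODE M21 transcript of each gene without the stop codon, ran from 75 bases in Rpl41 to 1257 bases in Rpl4. The ratio correlated with coding length with r = -0.50 and rho = -0.52 over 77 genes, which share the same libraries and are not independent. In the 25 members with coding sequences of 75 to 396 bases the median ratio was 3.12, in the 27 of 399 to 564 bases it was 2.53, and in the 25 of 576 to 1257 bases it was 1.99. Against the length of the whole mRNA the relation was weaker, with r = -0.26. The share of G and C in the mRNA gave r = 0.08.

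The excess of CAC replicates 2 and 3 over CAC replicate 1 had no such slope. All 77 members were higher in the mean of those libraries, by a median of 1.55 times and a range from 1.00 in Rps10 to 2.40 times in Rps27, and the correlation with coding length was r = 0.06. Rps27a followed with 2.36 times. The medians of the ratio were 1.55, 1.51 and 1.59 in the groups of short, middle and long coding sequences. The fitted fold change with all libraries was above 0 in 7 of the 25 shortest and in 18 of the 25 longest members, with medians of -0.20 and 0.13. Without CONT replicate 1 these medians were 0.57 and 0.58. What the length relation in CONT replicate 1 rests on was not tested.

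**Figure D4:**
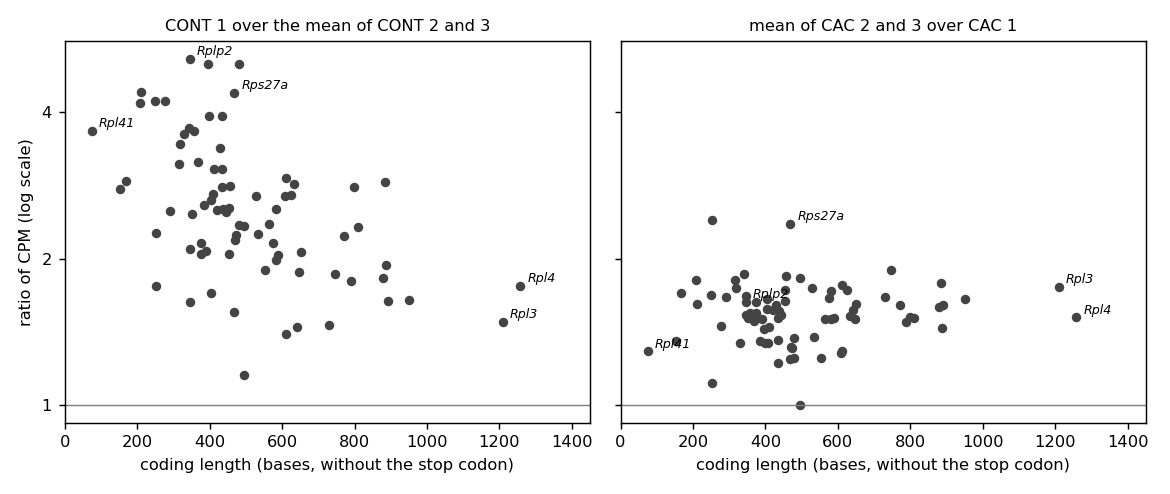
Each point is 1 of the 77 tested genes, with its coding length in bases on the horizontal axis and a ratio of CPM on the vertical log axis. The ratio of CONT replicate 1 to the mean of CONT replicates 2 and 3 (left) is lower in longer genes, with Rplp2 at 5.14, and the ratio of the mean of CAC replicates 2 and 3 to CAC replicate 1 (right) shows no slope.

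The 3 members that did not pass the filter were paralogs with reads in single libraries. Rpl3l, a paralog of Rpl3 known from heart and skeletal muscle, had 4, 4 and 300 reads in CONT and 7, 7 and 4 in CAC. Rpl10l, an autosomal copy of the X-linked Rpl10 that acts in male germ cells, had 0, 194 and 1 reads in CONT and 0, 1 and 356 in CAC. Rpl39l, an autosomal copy of the X-linked Rpl39 in male germ cells, had 0, 239 and 7 reads in CONT and 1, 1 and 394 in CAC. Rpl10l and Rpl39l thus were above 10 reads in the same libraries as the summed testis genes, CONT replicate 2 and CAC replicate 3. Rpl3l was high in CONT replicate 3, the library with the epididymis genes, where 7 skeletal muscle genes summed to 11.3 CPM against 53.9 CPM in CONT replicate 1 and 49.4 CPM in CAC replicate 1. Their 3 levels are thus those of 1 library each or 1 library per group, and they give no comparison of the groups.

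**Figure D5:**
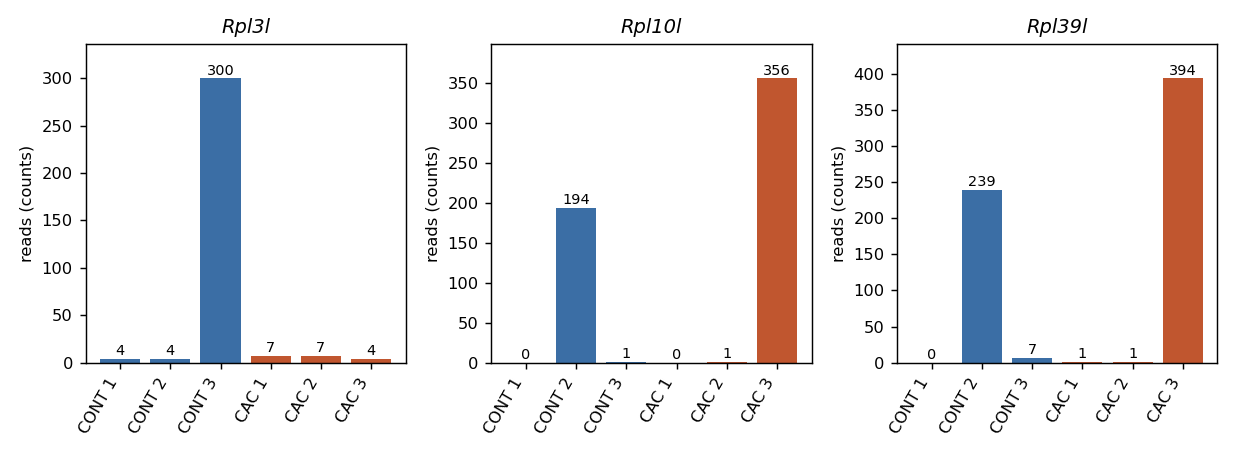
Bars give the reads (counts) of Rpl3l, Rpl10l and Rpl39l in each of the 6 libraries, with CONT in blue and CAC in orange. Rpl3l is above 7 reads in CONT replicate 3 only, at 300, and Rpl10l and Rpl39l are above 7 reads in CONT replicate 2 and CAC replicate 3 only.

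The coding sequences of these copies differ from their parents at many bases. Rpl39 (chrX:37082520-37085402, minus strand) and Rpl39l (chr16:10170226-10174911, plus strand) both have 153 coding bases without the stop codon, and 130 of them are identical (85.0%). Their sequences, from the GENCODE M21 transcripts, are given in full with the 23 differing bases in capitals, to show how the differences are spread.
Rpl39: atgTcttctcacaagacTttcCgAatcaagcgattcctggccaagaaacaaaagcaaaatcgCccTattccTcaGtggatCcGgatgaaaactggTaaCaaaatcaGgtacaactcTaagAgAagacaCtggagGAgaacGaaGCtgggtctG
Rpl39l: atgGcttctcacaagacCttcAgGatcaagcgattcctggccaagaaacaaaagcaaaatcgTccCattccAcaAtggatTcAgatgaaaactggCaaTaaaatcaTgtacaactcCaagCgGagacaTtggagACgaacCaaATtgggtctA
Rpl10 and Rpl10l were identical at 84.7% of 642 bases, Rps27 and Rps27l at 76.2% of 252, and Rpl3 and Rpl3l at 73.2% of 1228 aligned columns.

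The parent genes were present in every library. Rpl39 was at 454, 167 and 161 CPM in CONT and at 167, 219 and 235.3 CPM in CAC, and Rpl10 at 811, 491 and 631 CPM in CONT and at 536, 853 and 829 CPM in CAC. Rps27l, the paralog of Rps27 that is a target of p53, was at 117, 67.2 and 65.1 CPM in CONT and at 73.1, 71.4 and 91.0 CPM in CAC (log2 fold change -0.08 ± 0.28 SE, adjusted p = 0.929). Rps27 itself was at 450, 193 and 207 CPM in CONT and at 199, 480 and 476 CPM in CAC (0.44 ± 0.48 SE, adjusted p = 0.716). Within CAC, Rps27 was 2.40 times higher in the mean of replicates 2 and 3 than in replicate 1.

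Levels differed between members by orders of magnitude on the FPKM scale, which divides by the summed exon length of a gene. Rplp1, a protein of the stalk that recruits elongation factors, was highest, with 3707, 897 and 1076 FPKM in CONT and 1215, 2308 and 2163 FPKM in CAC. Rpl36 had a mean level over the 6 libraries of 1012 FPKM, Rps15 of 743 FPKM, Rpl41 of 600 FPKM and Rplp0, the anchor of the stalk, of 496 FPKM. Within libraries, Rplp1 was above Rpl36 in 6 of 6 libraries by 1.57 to 2.12 times, Rpl36 above Rps15 in 6 of 6 by 1.03 to 1.83 times, and Rps15 above Rpl41 in 6 of 6 by 1.09 to 1.61 times. Rpl41 was above Rplp0 in 3 of 6 libraries only, so that their order did not hold beyond the spread. Per kilobase of the main mRNA in place of the summed exons, the 5 highest were Rplp1, Rpl41, Rps14, Rpl36 and Rps15, and Rps18 moved from rank 35 to rank 6.

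The lowest levels among tested members are uncertain for several reasons. Rps10 had a mean of 1.22 FPKM, Rpl24 of 1.26 FPKM and Rpl13a of 5.24 FPKM, beside 25.4 FPKM in Rpl21 and 32.6 FPKM in Rps15a. The FPKM of Rps15a divides by a summed exon length of 6270 bases. By reads it was not scarce, with means of 235 CPM in CONT and 269 CPM in CAC. In the gene table Rps10 overlaps the readthrough row RPS10-NUDT3, Rpl24 the row Gm28037 and Rpl13a the row Gm45713, each with 0 reads, and Rps15a overlaps none. Overlap is common among the members, 44 of 80 of which share bases with another row, and Rpl13 held 84710 reads although it overlaps Gm20388, a row with 0 reads. How reads on overlapping rows were counted is not given in the sources used here, and the part of the overlap in these levels was not tested. Rps28 overlaps Kank3 on the opposite strand, which held 20378 reads beside its own 32854, and its level is uncertain too. Rpl13a, which is used as a reference gene and takes part in interferon-dependent translational control, was at 25.1, 8.54 and 10.2 CPM in CONT and at 10.7, 10.9 and 16.5 CPM in CAC.

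Processed copies held few of the reads in all. The 297 ribosomal protein pseudogene rows had 3.67% to 4.14% as many reads as the members in each library, and the order of the libraries was not that of the member share. In 2 members the pseudogene rows held more reads than the gene itself, 14782 beside 456 in Rps10 and 33768 beside 14594 in Rpl17, so that both levels are uncertain. Rpl17 was also the member least like the others. It was at 140, 101 and 46.2 CPM in CONT and at 111, 200 and 77 CPM in CAC.

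Genes often used as references or known for other roles spread as the rest did. Rplp0 was at 1335, 712 and 907 CPM in CONT and at 729, 1170 and 1241 CPM in CAC (log2 fold change 0.09 ± 0.36 SE). Rps18 was at 950, 323 and 350 CPM in CONT and at 370, 642 and 719 CPM in CAC (0.09 ± 0.51 SE). Within CONT both spread more widely than the group means differed, and the log2 fold changes were smaller than their errors.

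Rpl5 and Rpl11 bind 5S ribosomal RNA and, outside the ribosome, the p53 ligase Mdm2. Rpl5 was at 526, 310 and 333 CPM in CONT and at 354, 569 and 569 CPM in CAC. Rpl11 was at 860, 391 and 375 CPM in CONT and at 423, 591 and 576 CPM in CAC. Rpl11 was thus highest in CONT replicate 1 and Rpl5 in CAC replicates 2 and 3, with log2 fold changes of -0.03 ± 0.39 (SE) and 0.35 ± 0.32 (SE).

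Rplp2, the partner of Rplp1 in the stalk, was at 1872, 352 and 376 CPM in CONT and at 543, 877 and 892 CPM in CAC. Rpsa, also known as the laminin receptor, was at 1698, 565 and 619 CPM in CONT and at 623, 1044 and 1177 CPM in CAC. Rps19, the gene most often mutated in Diamond-Blackfan anemia, was at 1302, 438 and 415 CPM in CONT and at 550, 681 and 662 CPM in CAC. In these genes CONT replicate 1 was the highest library and CAC replicates 2 and 3 came next. The X-linked Rps4x was at 671, 349 and 398 CPM in CONT and at 388, 583 and 568 CPM in CAC, a log2 fold change of 0.12 ± 0.34 (SE).

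The remaining ribosomal proteins did not pass the adjusted threshold either. The 7 genes of the small and large subunit outside the name rule include Rack1, Fau and Rps3a1. Their log2 fold changes ran from -0.20 to 0.30 around a median of 0.09. Of them 0 had an unadjusted p under 0.05, against 6.31% higher and 6.95% lower of all tested genes. Without CONT replicate 1 the median was 0.65 and 6 of 7 were above 0. In that fit 1 was higher at an unadjusted p under 0.05, against 7.3% of all genes. Of the mitochondrial ribosomal proteins, which build the separate ribosome of the organelle, 77 of 78 were tested, and 28 were above 0 with a median of -0.19. At an unadjusted p under 0.05, 4 were higher and 2 lower in CAC, against 6.31% and 6.95% of all tested genes. The direction turned without CONT replicate 1, with 61 of 77 above 0, a median of 0.17, and 15 higher and 1 lower at that threshold, against 7.3% and 8.28% of all genes. Mrps6 had the smallest p and was at 90.8, 35.1 and 36.2 CPM in CONT and at 23.4, 15.3 and 16.8 CPM in CAC, without overlap (log2 fold change -1.54 ± 0.43 SE, adjusted p = 0.273).

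Most genes that build ribosomes had fold changes above 0, although none passed the adjusted threshold. Of 68 genes of ribosome biogenesis and RNA polymerase I, 57 were above 0 around a median of 0.37 on the log2 scale, and 16 were higher at an unadjusted p under 0.05 and 0 lower, while 0 had an adjusted p under 0.05 (smallest 0.228). The share of all tested genes past that threshold was 6.31% higher and 6.95% lower. In 24 of the 68 every CAC library lay above every CONT library, beside 11.8% of all tested genes. Rrn3, the initiation factor of RNA polymerase I, was at 29.5, 32.3 and 35.3 CPM in CONT and at 49.1, 63.7 and 70.7 CPM in CAC (0.92 ± 0.20 SE on the log2 scale, adjusted p = 0.228).

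Riok2, a kinase that matures the small subunit, was at 21.2, 22.3 and 19.5 CPM in CONT and at 37, 37.9 and 32.4 CPM in CAC (adjusted p = 0.228, edgeR). Ddx21, a nucleolar helicase, was at 37.1, 55.5 and 63.0 CPM in CONT and at 95.1, 109 and 138 CPM in CAC (adjusted p = 0.232, edgeR). In these genes the groups did not overlap, and CONT replicate 1 was not the highest library. Without CONT replicate 1, 64 of the 68 were above 0 with a median of 0.49, and 23 were higher at an unadjusted p under 0.05, against 7.3% of all genes. No test compared this list with the ribosomal proteins.

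Regulators of MYC and of ribosomal protein mRNA translation were mixed. Of 27 genes 18 were above 0 with a median of 0.14, and 7 were higher and 1 lower at an unadjusted p under 0.05, against 6.31% and 6.95% of all tested genes. The median was 0.27 without CONT replicate 1, with 6 higher and 1 lower, against 7.3% and 8.28%. Myc, an activator of ribosome production, was at 14.4, 11.8 and 12.2 CPM in CONT and at 33, 35.8 and 68.8 CPM in CAC (log2 fold change 1.84 ± 0.33 SE, adjusted p = 0.215). Mycl was at 15.7, 18.3 and 39.1 CPM in CONT and at 97.7, 186 and 181 CPM in CAC (2.67 ± 0.45 SE, adjusted p = 0.215). Mycn was at 2.85, 1.80 and 3.44 CPM in CONT and at 0.329, 0.888 and 0.264 CPM in CAC (-2.44 ± 0.63 SE, adjusted p = 0.259). In these 3 genes the groups did not overlap, and Mycn was the low one in CAC.

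No translation factor passed the adjusted threshold. Of 36 initiation factors, 28 were above 0 with a median of 0.25, and 5 were higher and 0 lower at an unadjusted p under 0.05, against 6.31% and 6.95% of all tested genes. Without CONT replicate 1 the median was 0.35, and again 5 were higher and 0 lower, against 7.3% and 8.28% of all genes. Eif3j1, a loosely bound subunit of eIF3, was at 43.2, 33.7 and 42.4 CPM in CONT and at 60.2, 68.8 and 87.9 CPM in CAC (log2 fold change 0.86 ± 0.21 SE, adjusted p = 0.242). Eif2s3x, the X-linked gamma subunit of eIF2, was at 52.6, 52.0 and 66.1 CPM in CONT and at 80.6, 94.9 and 89.5 CPM in CAC (0.63 ± 0.18 SE, adjusted p = 0.273). Both were higher in every CAC library than in every CONT library. Eif3l, next in the order of p, had a log2 fold change of 0.60 ± 0.21 (SE; adjusted p = 0.327).

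Of 12 elongation and termination factors tested of 13, 10 were above 0 with a median of 0.15. Of these 12, 0 had an unadjusted p under 0.05, against 6.31% higher and 6.95% lower of all tested genes. Without CONT replicate 1, 12 of 13 were above 0 with a median of 0.41, and 2 were higher at that threshold, against 7.3% of all genes. Of 21 TOP mRNAs other than ribosomal proteins, 14 were above 0 with a median of 0.24, and 1 was higher at an unadjusted p under 0.05, against 6.31% of all tested genes. With CONT replicate 1 left out, 20 of 21 were above 0 with a median of 0.57, and 3 were higher, against 7.3%. With all libraries the gene past the threshold was Eif4b, the cofactor of the eIF4A helicase, at 269, 241 and 304 CPM in CONT and at 292, 550 and 519 CPM in CAC (0.74 ± 0.30 SE on the log2 scale, adjusted p = 0.370). Eef2, the translocase and also a TOP mRNA, was at 2319, 1698 and 2228 CPM in CONT and at 2262, 3421 and 3319 CPM in CAC. In both genes CAC replicates 2 and 3 were the high libraries, and CONT replicate 1 was not raised as in the ribosomal proteins. This did not hold for the TOP list as a whole. Its summed level was 14663, 8923 and 10976 CPM in CONT and 10679, 15319 and 16315 CPM in CAC.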

How the data were processed

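RNA of eWAT was sequenced from 3 CONT and 3 CAC mice, 1 library each, after poly(A) selection. Per the labels and the study's methods, reads were cleaned with in-house scripts, aligned with HISAT2 2.0.5 to GRCm38 (Ensembl) and counted, with featureCounts 1.5.0-p3 among the submitters' tools. The authors deposited whole-number counts and FPKM. FPKM equals the deposited count over gene length and a factor per library. That factor was 1.21 to 1.25 times the TMM-scaled library size and was not the total of counts. In CONT replicate 1 it was 13817700 beside 15713794 counts, and in CONT replicate 2 it was 28608300 beside 19819755. Strand and overlap settings are not given in the sources used here.

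Counts were tested in R 4.3.3 with edgeR 4.0.16 (quasi-likelihood, robust, TMM, filterByExpr, Benjamini-Hochberg) on all genes, with group as the only term. Alternatives were RLE and upper-quartile scaling, TMM without the members, no mitochondrial genes, a gene length offset, other filters, a replicate block, each library left out, DESeq2 1.42.0, and limma 3.58.1 on FPKM in log2 after adding 1 or 0.1, for genes reaching 0.5 FPKM in at least 3 libraries. DESeq2 and the length offset without CONT replicate 1 were added after seeing the data, as were the testis and skeletal muscle lists. The script was tested on simulated counts. CPM uses TMM-scaled library sizes, and log2 CPM a prior count of 2. Correlations with coding length are over genes. 1 CPM stood for 11.2 to 26.5 reads, and the common dispersion was 0.265.

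The members, the lists and the tests were chosen with earlier results of these data known. Named are members that failed the filter, the 6 with the smallest p, the 5 largest fold changes each way, the 5 highest and 5 lowest FPKM, paralog pairs, members with known other roles, and up to 3 genes of smallest p per other list. The labels give replicate numbers but no pairing of the mice. Same-numbered libraries deviated together with r = 0.31, -0.15 and -0.22. With 3 libraries per group these values cannot decide whether mice were paired. Lists of B and plasma cells, T cells, neutrophils, fibroblasts, endothelium and mesothelium were computed as well and are given at the end. The values of 2 genes that entered the tests are not reported here.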

Additional observations from a re-analysis of the deposited data

How the results depend on the processing

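With all 6 libraries, 0 members had an adjusted p under 0.05 under RLE and upper-quartile scaling, TMM without the members, no mitochondrial genes, the length offset, both filters, DESeq2 and limma on FPKM, with medians of the log2 fold change from -0.05 to 0.14. With a replicate block the count was also 0 and the median 0.12. Above 0 were 56 of 77 members with the block and in both limma fits and 54 with the length offset, against 36 in the reported fit. Leaving out 1 library gave 0 to 15 members higher at an unadjusted p under 0.05, medians from -0.22 to 0.57, and 0 to 50 members without overlap. The upper values were those without CONT replicate 1, where 7.3% of all genes were higher at that threshold and 19.5% higher without overlap. DESeq2 without CONT replicate 1 gave a median of 0.61 and 11 members past the adjusted threshold, against 5.84% higher and 5.18% lower of all genes. At an unadjusted p under 0.05 it gave 49 higher and 1 lower, against 6.94% and 6.27%. The length offset with CONT replicate 1 left out gave 23 higher, against 8.65%, and a median of 0.63. No filter gave 1 lower, against 3.52%. The causes were not tested.

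All 41 tested members below 0 were above 0 without CONT replicate 1. Among the 11 members with the smallest p or the largest fold changes, 5 changed sign. Leaving out 1 library, the log2 fold change ran from -1.41 to 0.24 in Rpl21, -1.20 to 0.41 in Rps12, -1.07 to 0.37 in Rpl38, -0.97 to 0.26 in Rpl41 and -0.83 to 0.48 in Rps24. DESeq2 without that library gave 0.29, 0.46, 0.42, 0.31 and 0.53, and the length offset without it 0.34, 0.51, 0.36, 0.33 and 0.55, in the same order. The other 6 of these 11 kept their sign in every alternative. Depth is lowest for Rps10, Rpl24 and the 3 paralogs outside the filter.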

Other observations

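Markers of other cell types in the pads gave these values. The 4 neutrophil markers were higher in every CAC library, by a median of 4.04 on the log2 scale, and their summed level was 4.82, 40.9 and 52.0 CPM in CONT and 137, 214 and 980 CPM in CAC, without overlap. The 5 B and plasma cell markers had a median of -1.14, with sums of 370, 1001 and 557 CPM in CONT and 106, 90.2 and 27.9 CPM in CAC. The 5 fibroblast and progenitor markers had a median of -0.86, with 1 of 5 above 0, the 5 T cell markers of -0.52, the 4 mesothelium markers of -0.50 and the 4 endothelium markers of 0.09, with sums of 1925, 905 and 980 CPM in CONT and 1470, 1212 and 1594 CPM in CAC. Without CONT replicate 1 the mesothelium median was -0.09 and the endothelium median 0.63, while the neutrophil, B and plasma cell, fibroblast and T cell medians were 3.59, -1.12, -0.87 and -0.40. None of these genes passed an adjusted p of 0.05 in edgeR, where 3 neutrophil markers were higher and 2 B and plasma cell and 3 fibroblast markers lower at an unadjusted p under 0.05, against 6.31% higher and 6.95% lower over all tested genes.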
